A study of Homo sapiens with 8 samples.

Results

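The genes of major histocompatibility complex (MHC) class I antigen presentation were compared between control and FOXA1 knockdown cells of the human breast cancer line SKBR3, which carries an amplified ERBB2 (HER2) gene. The group comprised 9 genes, chosen by name from the 30434 genes of the deposited table: the heavy chain genes HLA-B, HLA-C, HLA-E and HLA-F, the light chain gene B2M, the peptide transporter and loading genes TAP1, TAP2 and TAPBP, and the regulator NLRC5. Of these, 8 were abundant enough to be tested and HLA-F was not. NLRC5, the tested gene with the fewest counts, had at least 12 in every library, above the minimum of 10 that the filter asks of a group. Messenger RNA was sequenced as paired reads in 4 control libraries and 4 knockdown libraries. The control cells carry the genotype label WT, and the knockdown cells had FOXA1, a pioneer transcription factor of luminal breast cells, lowered in a stable line by 3 short hairpin RNAs against its mRNA, carried by lentiviruses. Both were grown in the same serum-supplemented medium, with no interferon or other treatment named. The labels do not say whether the controls carried a control vector, whether the stable line is a single clone, or whether replicates were separate cultures, so p-values measure only the spread between these libraries, which may be technical. The series concerns the requirement for FOXA1 in ERBB2 expression and luminal differentiation.

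A class I molecule is a polymorphic heavy chain, such as HLA-B or HLA-C, or a less variable one, such as HLA-E or HLA-F, held together with the invariant light chain beta-2 microglobulin. Peptides cut by proteasomes in the cytosol are pumped into the endoplasmic reticulum by the transporter made of TAP1 and TAP2, and tapasin, the product of TAPBP, bridges that transporter to empty class I molecules. NLRC5 is the class I transactivator, which acts through a conserved promoter module of X and Y boxes, while interferon acts through interferon-stimulated response elements bound by IRF factors. Epithelial cells normally show class I at their surface, and tumours often lose it.

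RefSeq (GRCh38.p14) promoter windows, from 250 bases before to 50 after a transcription start, were available for 7 of the 9 genes (not HLA-E or NLRC5), and the bases before the start are shown for those in which the letters of these elements differ. In the sequences, capitals mark the core of the X2 box (TGACG), the Y box (ATTGG) and the interferon-stimulated response element (GAAANNGAA), each read on either strand, and overlapping matches run together. The first set holds 3 genes that rose, HLA-B (chr6:31357180-31357429, minus strand), HLA-C (chr6:31272093-31272342, minus strand) and B2M (chr15:44711267-44711516, plus strand), with HLA-F (chr6:29723184-29723433, plus strand), which stayed at the limit of detection in both groups.
HLA-B: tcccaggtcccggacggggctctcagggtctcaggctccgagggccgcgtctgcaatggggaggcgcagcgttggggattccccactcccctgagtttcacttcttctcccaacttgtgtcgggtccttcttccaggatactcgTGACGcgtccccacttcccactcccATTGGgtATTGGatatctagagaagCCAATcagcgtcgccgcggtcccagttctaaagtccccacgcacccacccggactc
HLA-C: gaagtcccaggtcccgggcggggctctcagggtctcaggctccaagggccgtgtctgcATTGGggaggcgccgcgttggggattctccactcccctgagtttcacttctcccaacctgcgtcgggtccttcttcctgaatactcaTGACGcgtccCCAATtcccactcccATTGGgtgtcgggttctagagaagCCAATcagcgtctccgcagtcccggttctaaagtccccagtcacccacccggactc
B2M: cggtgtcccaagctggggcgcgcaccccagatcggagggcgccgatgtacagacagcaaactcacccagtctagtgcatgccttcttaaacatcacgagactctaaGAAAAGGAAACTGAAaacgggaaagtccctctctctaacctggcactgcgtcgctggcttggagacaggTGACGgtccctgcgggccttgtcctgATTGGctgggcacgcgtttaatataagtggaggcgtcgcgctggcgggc
HLA-F: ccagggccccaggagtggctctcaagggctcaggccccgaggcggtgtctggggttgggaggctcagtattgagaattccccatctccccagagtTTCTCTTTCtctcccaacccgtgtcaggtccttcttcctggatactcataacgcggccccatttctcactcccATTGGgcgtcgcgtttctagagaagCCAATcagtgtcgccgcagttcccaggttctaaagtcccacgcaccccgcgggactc

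In HLA-B, HLA-C and B2M an X2 core was followed by a Y box on the same strand with their starts 25 or 26 bases apart. The X2 core began 106 bases before the start in HLA-B, 105 in HLA-C and 75 in B2M, and the Y box 81, 80 and 49 bases before it. This spacing was chosen after these windows had been seen, and 0.151% of all 35116 RefSeq windows held it (53 windows). Singly the letters are common: 24.6% of windows held the X2 core, 34.6% the Y box and 8.11% the response element. The window of HLA-F held Y boxes beginning 82 and 57 bases before the start, but these letters of the X2 core were not in it. Genes that rose did not all hold both: TAP2 held an X2 core beginning 35 bases before its start but no Y box. TAP1 held a Y box beginning 249 bases before its start but no X2 core, and TAPBP held neither. HLA-B also held GGGGATTCCC, a match to the kappa B motif (3 G, any 5 bases, then 2 C), beginning 177 bases before its start. Matches to that motif also lay in the windows of HLA-C, B2M, TAP1, TAP2 and TAPBP, and 58.7% of all windows match it.

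The second set shows the response element in the windows of TAP1 (chr6:32853705-32853954, minus strand, the first of 2 windows) and TAPBP (chr6:33314079-33314328, minus strand).
TAP1: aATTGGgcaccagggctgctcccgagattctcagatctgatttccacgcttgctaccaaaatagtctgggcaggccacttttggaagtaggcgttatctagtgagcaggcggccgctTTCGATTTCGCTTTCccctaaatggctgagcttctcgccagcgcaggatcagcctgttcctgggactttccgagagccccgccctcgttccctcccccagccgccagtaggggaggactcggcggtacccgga
TAPBP: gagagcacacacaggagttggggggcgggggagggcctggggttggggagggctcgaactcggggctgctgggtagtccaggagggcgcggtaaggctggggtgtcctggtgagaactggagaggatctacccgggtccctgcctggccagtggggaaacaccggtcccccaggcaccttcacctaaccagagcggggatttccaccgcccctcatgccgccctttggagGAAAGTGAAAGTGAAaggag

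Each of these held 2 overlapping response elements, beginning 133 and 127 bases before the start in TAP1, on the opposite strand, and 20 and 14 bases before it in TAPBP. B2M held 2 as well, beginning 144 and 138 bases before its start. TAP2 held 1, GAAAGCGAA, beginning 58 bases before its start, and HLA-F held 1. Thus 5 of the 7 genes with a window held these letters, the untested HLA-F among them. The share of 8.11% counts windows and not genes, and TAP1 had 2 windows. HLA-B and HLA-C did not match these exact letters, but the search could not find elements that depart from them, so their absence was not shown. A match of letters is a description and not evidence that a factor binds there.

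The libraries held between 19087878 and 23786684 counts. FOXA1 itself fell from between 4071 and 4397 counts in the control libraries to between 83 and 92 in the knockdown libraries, which left 2.07% of its control level (log2 fold change -5.60, SE 0.063, adjusted p = 3.19e-30 in edgeR's quasi-likelihood test). The knockdown was wide in its effect: 77.1% of the 16430 tested genes passed an adjusted p of 0.05 in that test, 39.4% higher and 37.7% lower, with a median log2 fold change of 0.02 over all tested genes. The 10 markers of SKBR3 epithelium were all detected, with a summed level of 18750 to 20860 CPM (counts scaled to a library total of 1000000) in control and 11760 to 12660 CPM in knockdown. They did not move together: 5 were higher and 5 lower in edgeR's test, ERBB2 going from 7308 to 1340 CPM and KRT18 from 2312 to 3457 CPM. In these bulk samples, fewer cells of a type and less RNA per cell cannot be told apart.

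All 8 tested genes of the class I group were higher in the knockdown libraries at an adjusted p under 0.05 (edgeR's quasi-likelihood test), and 0 were lower. Beside them, 39.4% of all tested genes were called higher. The groups of libraries did not overlap for 7 of the 8, against 36.9% of all tested genes that were higher without overlap. HLA-B, HLA-C, NLRC5, B2M and TAP1 were called with a rise of at least 2-fold, which held for 14.9% of all tested genes. The median log2 fold change of the 8 was 1.13, beside 0.02 over all tested genes. The size of the rise differed widely within the group, from 4.95-fold for HLA-C to 1.06-fold for HLA-E. Together the 9 genes took 0.0842% to 0.085% of the counts in control libraries and 0.163% to 0.169% in knockdown libraries.

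**Figure D1:**
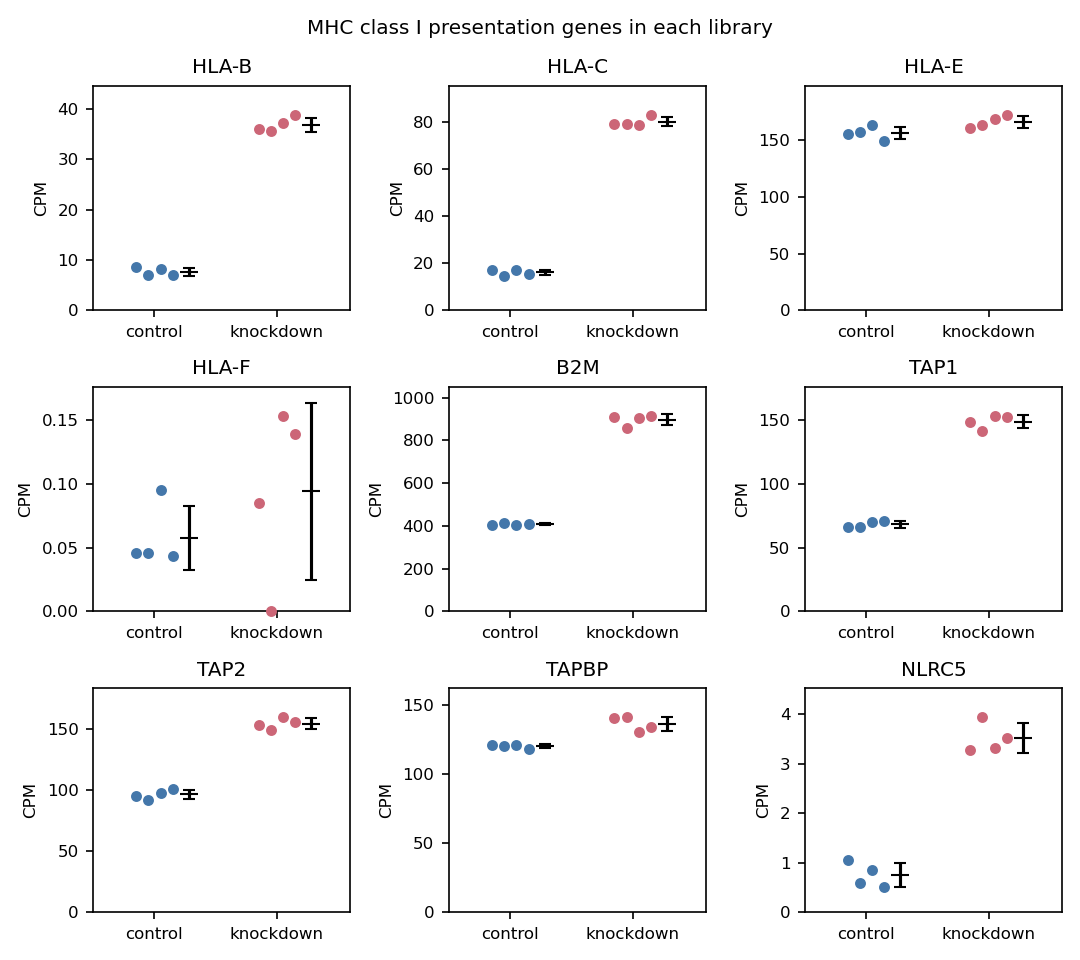
Level of each of the 9 class I genes in CPM (vertical axes starting at 0) in the 4 control libraries (blue) and the 4 FOXA1 knockdown libraries (red), with the mean and SD of each group in black. The groups are apart for every gene except HLA-E and HLA-F, and the scale of HLA-F covers at most 3 counts per library.

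HLA-B and HLA-C, heavy chains that present peptides to cytotoxic T cells and bind inhibitory receptors of natural killer cells, rose most among the heavy chains. HLA-B (ENSG00000234745.11, chromosome 6, 31269491 to 31357188, minus strand, GENCODE 29 on GRCh38) measured 8.56, 7.04, 8.17 and 7.02 CPM in control replicates 1 to 4 and 36.1, 35.6, 37.2 and 38.8 CPM in knockdown replicates 1 to 4. Every knockdown library was far above every control library. The mean rose from 7.70 ± 0.788 to 36.9 ± 1.41 CPM (SD, n = 4 each), and edgeR's test gave a log2 fold change of 2.26 (SE 0.078) at an adjusted p of 2.33e-20. An exact two-sided permutation test of the 4 against 4 libraries gave p = 0.0286, the smallest this design allows, for HLA-B and for each of the other 6 genes whose groups did not overlap.

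HLA-C (ENSG00000204525.16, chromosome 6, 31268749 to 31272130, minus strand) measured 17.2, 14.8, 16.9 and 15.6 CPM in control and 79.1, 78.8, 78.7 and 82.7 CPM in knockdown. The groups were again far apart, and knockdown replicate 4 was the highest library. In edgeR's test the log2 fold change of HLA-C was 2.31 (SE 0.055), at an adjusted p of 7.79e-23. Among all tested genes, 92.4% had a lower log2 fold change than HLA-B and 92.5% a lower one than HLA-C.

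HLA-B and HLA-C lie side by side, and their products are alike in sequence. The annotated span of HLA-B includes a long transcript that reaches HLA-C and shares 35 exonic bases with it, so the division of reads between the 2 genes is uncertain. These are polymorphic genes, and the alleles of SKBR3 need not match the reference, which can lower the number of reads assigned to either. Within each library the ratio of HLA-C to HLA-B counts was 2.01 to 2.22 in control and 2.12 to 2.21 in knockdown, ranges that overlap. Summed over both genes, the mean went from 23.8 ± 1.92 to 117 ± 3.20 CPM (SD, n = 4 each), a ratio of 4.90 that does not depend on how reads were divided between them. HLA-B also overlaps a pseudogene on the opposite strand by 542 exonic bases, which averaged 2.12 counts per library.

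HLA-E, a heavy chain that presents leader peptides of other class I chains to the NKG2A and NKG2C receptors of natural killer cells, hardly moved. HLA-E (ENSG00000204592.9, chromosome 6, 30489467 to 30494205, plus strand) measured 155, 157, 163 and 149 CPM in control and 160, 163, 168 and 172 CPM in knockdown. Control replicate 3 lay among the knockdown libraries. The mean went from 156 ± 5.59 to 166 ± 5.07 CPM (SD, n = 4 each), and the log2 fold change was 0.09 (SE 0.034, 95% interval 0.004 to 0.17). The adjusted p was 0.033 in edgeR's test, while the exact permutation test gave p = 0.0571. This call was lost in 9 of 18 alternative analyses, among them RLE scaling (adjusted p = 0.0514), DESeq2 (adjusted p = 0.0692) and the fits without control replicate 1, 2 or 4 or without knockdown replicate 3 or 4. The change was therefore within what the choice of scaling or of libraries could remove.

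HLA-F, a heavy chain that can reach the cell surface without peptide, was not reliably detected. It had 1, 1, 2 and 1 counts in control and 2, 0, 3 and 3 counts in knockdown (ENSG00000204642.14, chromosome 6, 29722775 to 29738528, plus strand). All 8 libraries were at or under 3 counts, the floor used here, which equals 0.123 to 0.153 CPM depending on the library and covers counting error only. No fold is given, and a difference was not detectable at this depth. HLA-F shares exonic bases with 3 genes of the opposite strand, the largest overlap being 701 bases with a pseudogene, and each averaged under 2 counts per library.

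The makeup of the 4 heavy chain genes was therefore altered. HLA-E supplied 85.7%, 87.8%, 86.6% and 86.8% of their summed counts in control replicates 1 to 4. In knockdown replicates 1 to 4 it supplied 58.2%, 58.8%, 59.2% and 58.5%, so the groups were far apart. HLA-C went from a mean of 8.96% ± 0.518 to 28.3% ± 0.424 of the counts, and HLA-B from 4.27% ± 0.346 to 13.1% ± 0.169 (SD, n = 4 each). The summed level of the 4 genes went from 180 ± 6.67 to 283 ± 7.96 CPM, a ratio of 1.57. Shares of counts are not corrected for transcript length, and heavy chain genes outside the 4 are not included.

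**Figure D2:**
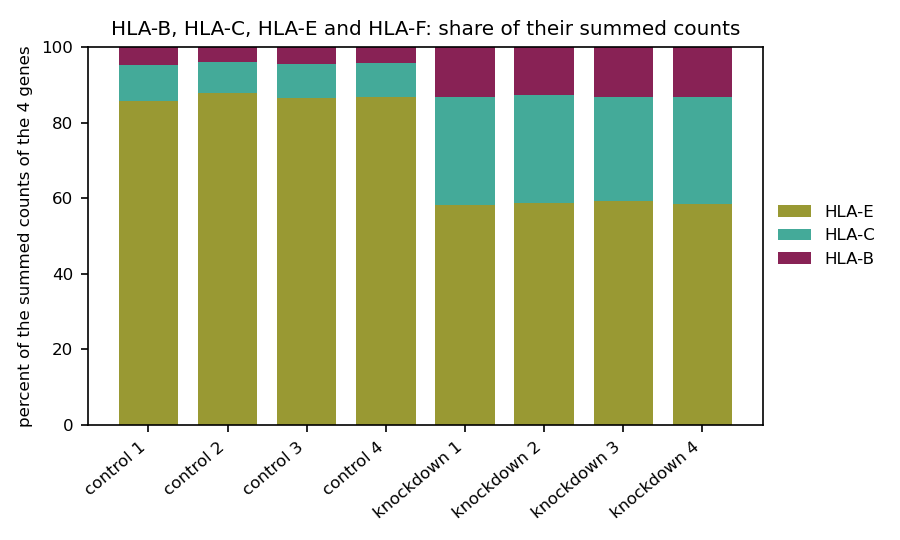
Share of the summed counts of HLA-B, HLA-C, HLA-E and HLA-F (percent, vertical axis) that each gene supplied in each of the 8 libraries; HLA-F, with at most 3 counts, is too small to see. HLA-E supplied 85.7% to 87.8% in the control libraries and 58.2% to 59.2% in the knockdown libraries, and the shares of HLA-B and HLA-C were larger in every knockdown library.

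B2M, the light chain shared by all classical and nonclassical heavy chains, was the most abundant of the 9 genes in both groups. B2M (ENSG00000166710.20, chromosome 15, 44711487 to 44718877, plus strand) measured 403, 413, 404 and 408 CPM in control and 908, 859, 904 and 913 CPM in knockdown. Knockdown replicate 2 was the lowest of its group and still above 2 times the highest control. In edgeR's test the log2 fold change of B2M was 1.14 (SE 0.022), at an adjusted p of 7.05e-21. The rise of B2M was larger than that of the 4 heavy chain genes summed: the ratio of B2M counts to theirs was 2.15 to 2.37 in control and 3.09 to 3.30 in knockdown, without overlap. Against HLA-B and HLA-C alone the ratio went the other way, from between 15.6 and 18.9 in control to between 7.51 and 7.88 in knockdown.

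TAP1 and TAP2, which pair to form the peptide transporter, both rose, TAP1 the more. TAP1 (ENSG00000168394.11, chromosome 6, 32845209 to 32853978, minus strand) measured 66.1, 66.4, 70.2 and 71.2 CPM in control and 149, 142, 153 and 152 CPM in knockdown. TAP2 (ENSG00000204267.16, chromosome 6, 32821833 to 32838780, minus strand) measured 95.2, 92.0, 97.2 and 101 CPM in control and 153, 149, 159 and 155 CPM in knockdown. In both genes the lowest knockdown library was well above the highest control library. The log2 fold change was 1.12 (SE 0.037, adjusted p = 1.16e-18) for TAP1 and 0.68 (SE 0.034, adjusted p = 1.6e-14) for TAP2 in edgeR's test. The ratio of TAP1 to TAP2 counts was 0.694, 0.722, 0.722 and 0.708 in control and 0.972, 0.954, 0.963 and 0.984 in knockdown, so it rose in every knockdown library.

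TAP2 shares 2064 exonic bases with a read-through gene on the same strand (ENSG00000250264), so some of its reads may have been assigned there. That gene averaged 293.88 counts per library and went from 9.84 ± 1.71 to 16.5 ± 1.603 CPM (SD, n = 4 each), and edgeR's test gave it a log2 fold change of 0.75 at an adjusted p of 8.59e-06. With the reads of both summed, an analysis added after seeing the data, the log2 fold change of TAP2 was 0.68. TAP1 overlaps the noncoding PSMB8-AS1 by 456 exonic bases on the opposite strand, which averaged 24.75 counts per library.

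TAPBP, which encodes tapasin, the editor that holds class I molecules to the transporter, rose little. TAPBP (ENSG00000231925.12, chromosome 6, 33299694 to 33314387, minus strand) measured 121, 121, 121 and 118 CPM in control and 141, 141, 131 and 134 CPM in knockdown. The groups did not overlap, but the lowest knockdown library was close to the controls. In edgeR's test TAPBP had a log2 fold change of 0.18 (SE 0.028), a 1.13-fold rise, at an adjusted p of 6.96e-05. Across all tested genes 59.5% had a lower fold change than TAPBP and 53.9% a lower one than HLA-E, whereas 86.5% were lower than B2M, 86.4% lower than TAP1 and 79.6% lower than TAP2.

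NLRC5, the transactivator of class I genes, rose about as much as HLA-B, from a very low level. NLRC5 (ENSG00000140853.15, chromosome 16, 56989485 to 57083531, plus strand) had 23, 13, 18 and 12 counts in control and 77, 96, 65 and 76 counts in knockdown. The groups did not overlap, although the lowest counts leave the control level less certain than for the other genes. Its mean went from 0.754 ± 0.247 to 3.51 ± 0.303 CPM (SD, n = 4 each). In edgeR's test NLRC5 had a log2 fold change of 2.22 (SE 0.238, 95% interval 1.64 to 2.80) at an adjusted p of 1.46e-10. That interval holds the fold changes of both HLA-B and HLA-C.

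**Figure D3:**
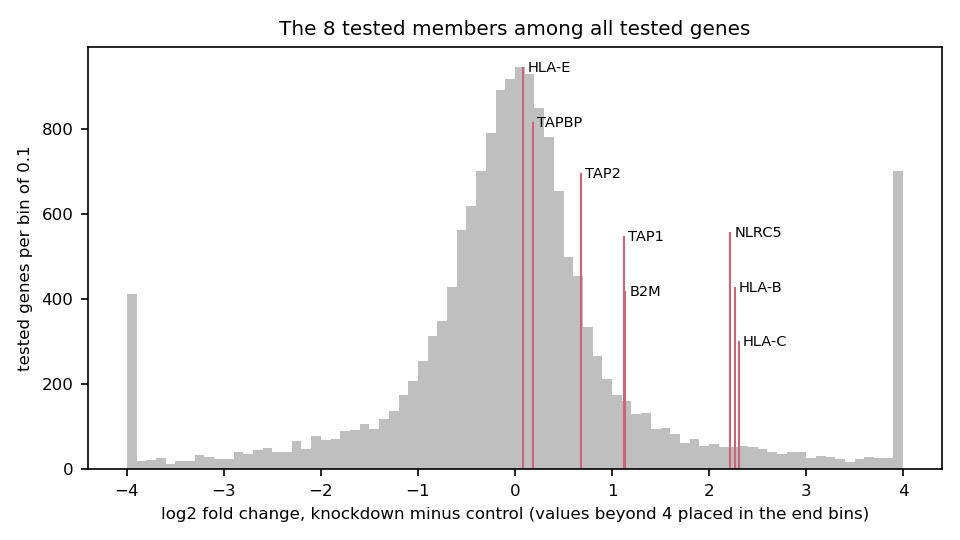
Distribution of log2 fold changes (knockdown minus control, horizontal axis) over the 16430 tested genes in bins of 0.1 (grey), with the 8 tested class I genes marked by red lines whose height carries no value. HLA-C, HLA-B and NLRC5 lie in the right tail, at 2.31, 2.26 and 2.22, and HLA-E and TAPBP near the centre, at 0.09 and 0.18.

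Levels were compared between genes per kilobase (kb) of the principal GENCODE 29 transcript. In control, B2M was highest at 239 ± 2.54 CPM per kb, followed by TAPBP at 63.7 ± 0.714, HLA-E at 60.0 ± 2.15, TAP2 at 38.6 ± 1.45, TAP1 at 23.1 ± 0.884, HLA-C at 10.5 ± 0.755, HLA-B at 4.98 ± 0.509 and NLRC5 at 0.11 ± 0.036 CPM per kb (SD, n = 4). HLA-F stood last at 0.035 CPM per kb, at the floor of detection. In knockdown, B2M reached 525 ± 14.7 CPM per kb and TAPBP 72.3 ± 2.70, and 2 pairs of neighbours in the order could not be told apart. HLA-E at 63.8 ± 1.95 and TAP2 at 61.7 ± 1.72 CPM per kb differed by less than their SDs summed, as did HLA-C at 52.0 ± 1.24 and TAP1 at 50.4 ± 1.74. HLA-B stood at 23.9 ± 0.910 CPM per kb and NLRC5 at 0.514 ± 0.044. By this length, HLA-C went from below TAP1 to level with it. Dividing by the length of all annotated exons instead, an alternative added after seeing the data, changed this order and most of the levels. It put B2M at 66.9 and HLA-E at 52.5 CPM per kb in control, with TAPBP at 23.8. In knockdown it put HLA-E at 55.7, HLA-C at 31.8, TAP1 at 31.0, TAPBP at 27 and TAP2 at 24.1 CPM per kb, so HLA-E and TAP2 were then far apart and only the closeness of HLA-C and TAP1 was seen with both lengths.

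The genes whose libraries followed HLA-B most closely were sought among the 13037 tested genes that averaged 50 counts or more in at least one group, by the Euclidean distance between centred log2 CPM over the 8 libraries. HLA-C was the nearest, at a distance of 0.133. ASIC1, an acid-sensing ion channel, and SLC4A11, a membrane transporter, followed at 0.196 each and went from 2.90 to 12.9 and from 20.7 to 97.1 CPM. NLRC5, which met that minimum in the knockdown group alone, ranked 158 by this measure, B2M 883, TAP1 902, TAP2 1809, TAPBP 4634 and HLA-E 5363, so the class I genes did not share one pattern of size. With 2 groups, the distance mainly reflects how alike 2 fold changes are.

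Of the 8 tested genes, 6 lie in the MHC on the short arm of chromosome 6, and B2M and NLRC5 lie on chromosomes 15 and 16. Between HLA-F and TAPBP, chromosome 6 from 29722775 to 33314387, 93 other protein-coding genes were tested. Of these, 55 were higher, 23 lower and 15 not called in edgeR's test, beside 39.4% higher and 37.7% lower of all tested genes. Their median log2 fold change was 0.32, above the 0.02 of all tested genes. The 6 class I genes there had a median of 0.90. Among the 50 tested genes nearest to each gene, the median was 0.42 around HLA-B, 0.35 around HLA-C, 0.14 around HLA-E, 0.21 around TAP1, 0.29 around TAP2, 0.25 around TAPBP and 0.26 around NLRC5. Around B2M it was -0.42, with 11 genes higher and 29 lower. Taken relative to these regional medians, HLA-B came to 1.84, HLA-C to 1.96, TAP1 to 0.91, TAP2 to 0.38, NLRC5 to 1.97 and B2M to 1.56 on the log2 scale, all still called. HLA-E came to -0.05 and TAPBP to -0.07, with the direction turned and no call.

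**Figure D4:**
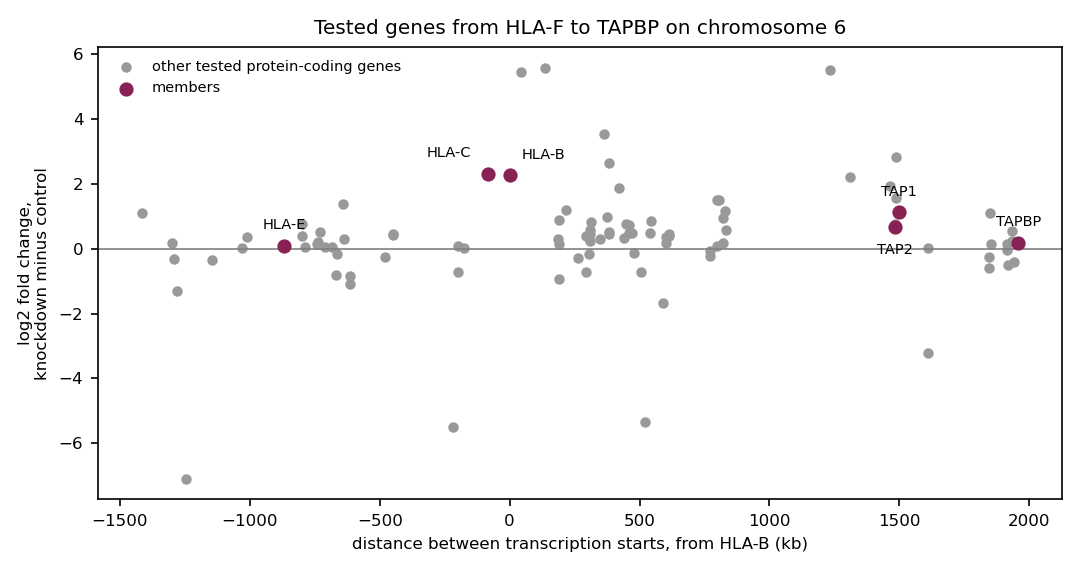
Log2 fold change (knockdown minus control, vertical axis) of the tested protein-coding genes between HLA-F and TAPBP on chromosome 6, by the distance of their transcription starts from that of HLA-B in kilobases (horizontal axis). Class I genes (dark red) lie among neighbours (grey) that moved in both directions, with 55 of the 93 neighbours higher and 23 lower.

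Immediate neighbours gave a mixed picture. MICA, the next tested gene beyond HLA-B and a ligand of the NKG2D receptor, had 0 or 1 counts in the control libraries and 14 to 20 in the knockdown libraries. PSMB9, an immunoproteasome subunit gene whose start faces that of TAP1 on the opposite strand, rose by 2.85 on the log2 scale (SE 0.084, adjusted p = 1.89e-19 in edgeR's test). The next tested gene to begin at higher coordinates than TAP1, HLA-DMA, a chaperone of class II molecules, fell by 3.22 on the log2 scale (adjusted p = 8.17e-16, edgeR). At lower coordinates PSMB8, whose span ends just before that of TAP1, rose by 1.56 (adjusted p = 7.72e-19, edgeR). Beside B2M, PATL2, an RNA-binding protein gene, rose from 0.781 ± 0.191 to 7.61 ± 0.684 CPM (SD, n = 4 each), and TRIM69, a ubiquitin ligase gene, rose by 0.41 on the log2 scale. Beside NLRC5, HERPUD1, a gene of endoplasmic reticulum protein degradation, fell by 0.74 on the log2 scale and CPNE2, a copine gene, rose by 1.14. All of these passed edgeR's test, MICA having entered it only through its knockdown counts.

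The genes for the catalytic subunits of the immunoproteasome were higher in the knockdown libraries. Of 5 genes for its subunits and for the PA28 activator, 4 were called higher and 1 lower in edgeR's test, with a median log2 fold change of 0.82; 39.4% of all tested genes were called higher. The catalytic subunit genes PSMB8, PSMB9 and PSMB10 went from 15.2 ± 0.398 to 44.9 ± 2.36 CPM, from 2.45 ± 0.278 to 17.6 ± 0.765 CPM and from 22.6 ± 1.58 to 39.8 ± 2.84 CPM (SD, n = 4 each). PSME1 and PSME2, the PA28 subunit genes, moved little and in opposite directions, by 0.22 and -0.13 on the log2 scale. PSME2 was not called under upper-quartile or library-size scaling. Of the 3 constitutive subunits that the immunoproteasome subunits replace, PSMB6 rose by 0.53, while PSMB5 fell by 0.29 and PSMB7 fell by 0.20. Neither fall held relative to regional medians, where PSMB5 stood at -0.07 (adjusted p = 0.0895, edgeR) and PSMB7 was called higher at 0.13. The ratio of PSMB8 to PSMB5 counts was 0.0816 to 0.0907 in control and 0.30 to 0.319 in knockdown, and that of PSMB9 to PSMB6 was 0.0403 to 0.0548 and 0.209 to 0.246. The ratio of PSMB10 to PSMB7 was 0.122 to 0.143 in control and 0.262 to 0.283 in knockdown, so none of the 3 ratios overlapped between the groups.

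Other genes of the loading complex and of peptide trimming did not move as one. Of 6 tested, 3 were higher, 2 lower and 1 not called in edgeR's test, with a median of 0.11. Beside these, 39.4% of all tested genes were called higher and 37.7% lower. The aminopeptidases of the endoplasmic reticulum ERAP1 and ERAP2, which trim peptides for class I, rose by 0.55 (adjusted p = 6.28e-11, edgeR) and 0.49 (adjusted p = 0.0189, edgeR). ERAP2 had only 32.25 counts on average in control, its groups overlapped and its call was lost in 5 of 17 alternatives. The chaperone CANX rose by 0.18, whereas CALR fell by 0.48 from 435 ± 9.78 to 311 ± 8.56 CPM and the oxidoreductase PDIA3 fell by 0.43 from 527 ± 9.05 to 391 ± 8.08 CPM (SD, n = 4 each). Relative to their regional medians, CANX came to -0.44 and PDIA3 to 0.00. TAPBPL, a tapasin-related editor, had a log2 fold change of 0.04 and was not called.

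Among 6 cytosolic peptidases, which trim or destroy peptides before transport, 3 were higher, 1 lower and 2 not called, with a median of 0.13. The shares of all tested genes were 39.4% higher and 37.7% lower. LAP3 rose by 0.87 from 40.4 ± 1.53 to 74.0 ± 2.69 CPM (SD, n = 4 each), BLMH by 0.55 and NPEPPS by 0.22, and NRDC fell by 0.27. TPP2 and THOP1 stood at 0.03 and -0.03 and were not called. Relative to regional medians the call of NPEPPS was lost (0.001, adjusted p = 0.982, edgeR), and TPP2 and THOP1 were called higher, at 0.51 and 0.21.

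SUSD6 and TMEM127, which lower class I at the protein level, fell in the knockdown libraries. Of the 6 tested genes in the list for class I turnover and inhibition, 4 were lower, 1 higher and 1 not called in edgeR's test, with a median log2 fold change of -0.56; 37.7% of all tested genes were called lower. SUSD6, a membrane protein that forms a complex with TMEM127 and the ubiquitin ligase WWP2 to send class I to lysosomes, went from 65.9 ± 2.38 to 15.5 ± 0.570 CPM (SD, n = 4 each), and its log2 fold change was -2.09 (adjusted p = 3.86e-22, edgeR). TMEM127 fell by 0.93, from 164 ± 3.32 to 85.7 ± 5.67 CPM, and WWP2, named after its values were seen, fell by 0.50, from 33.8 ± 1.41 to 23.8 ± 1.77 CPM. HM13, counted in this list although as the signal peptide peptidase it releases the leader peptides that HLA-E presents, fell by 0.62. MARCHF9, a membrane ubiquitin ligase, rose by 1.02 at under 2 CPM, and the protease gene SPPL3 stood at -0.01; both were also named after their values were seen.

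**Figure D5:**
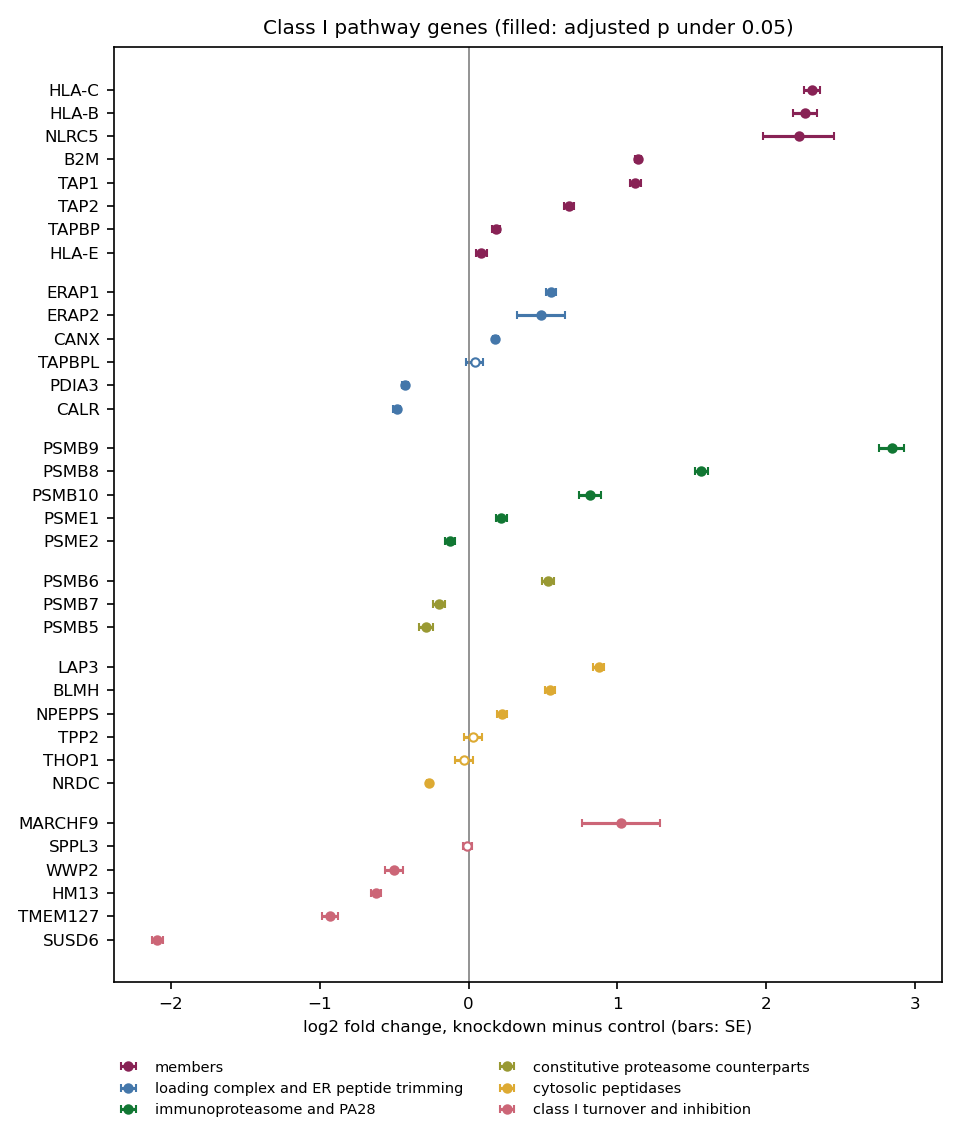
Log2 fold change (knockdown minus control, horizontal axis, bars showing the SE) of the 8 tested class I genes and of 5 groups of related genes, with filled points for an adjusted p under 0.05 and open points for genes not called. PSMB9, HLA-C, HLA-B and NLRC5 lie farthest to the right, and SUSD6 and TMEM127 farthest to the left.

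The genes listed for the control of class I promoters showed no common direction. Of 14 tested, 5 were higher, 4 lower and 5 not called in edgeR's test, with a median of 0.05. Across all tested genes, 39.4% were called higher and 37.7% lower. EZH2, counted among those higher and named after its values were seen, encodes a chromatin modifier. The Y box binding factor NF-Y is a trimer, and its subunit genes diverged. NFYA rose from 24.1 ± 0.746 to 50.6 ± 1.32 CPM while NFYB fell from 128 ± 9.08 to 39.99 ± 3.42 CPM (SD, n = 4 each). ATF1, a factor of the family that binds the X2 box, rose by 1.07 on the log2 scale.

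Interferon-induced genes outside the class I group were also mixed. Of 15 tested, 8 were higher, 3 lower and 4 not called in edgeR's test, with a median of 0.36. Over all tested genes, 39.4% were called higher and 37.7% lower. IFI6, an interferon-induced mitochondrial protein gene, rose from 4.03 ± 0.595 to 114 ± 3.71 CPM and ISG15, a ubiquitin-like modifier, from 1.82 ± 0.258 to 8.85 ± 0.770 CPM, while BST2, the virus-tethering protein tetherin, fell from 3.74 ± 0.251 to 0.283 ± 0.038 CPM (SD, n = 4 each). Of 7 interferon receptor and kinase genes, 0 were higher, 6 lower and 1 not called, beside 37.7% of all tested genes called lower. Their median was -0.53. JAK1 fell from 157 ± 6.13 to 71.8 ± 2.21 CPM, JAK2 from 11.5 ± 1.20 to 4.65 ± 0.368 CPM and IFNGR2 from 8.21 ± 0.454 to 3.99 ± 0.326 CPM (SD, n = 4 each).

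Of 11 tested class I and class I-like genes outside the group, 4 were higher, 5 lower and 2 not called, with a median of -0.17. For all tested genes, 39.4% were called higher and 37.7% lower. With a mean of at least 50 counts required, 1 was called higher and 5 lower, beside 5206 and 5073 of all 12421 genes then tested. The genes for NKG2D ligands moved in both directions. RAET1E and ULBP3 fell by 5.34 and 1.91 on the log2 scale, while MICA, given above, and MICB, named after its values were seen, were called higher, MICB with 0 to 2 counts in control and 24 to 55 in knockdown. MICA and MICB passed the filter only through the knockdown libraries. RAET1E, at 2 to 5 counts in knockdown, passed it only through the control libraries, so these 3 calls carry little weight. AZGP1, a secreted class I-like protein gene, fell by 2.65 on the log2 scale. In the class II pathway, 5 of 12 genes were tested, 4 higher and 1 lower, beside 39.4% of all tested genes called higher. HLA-DRB1 (0 or 1 counts in control, 12 to 22 in knockdown) and HLA-DQB1 (3 to 8 and 29 to 34) were among those higher. Both, named after their values were seen, passed the filter only through the knockdown libraries, so their calls carry little weight. With a mean of at least 50 counts required, 2 class II genes were called higher, beside 5206 of all 12421 genes then tested. HLA-DOB, an inhibitor of class II loading encoded next to TAP2, rose from 1.496 ± 0.236 to 5.70 ± 0.911 CPM and CIITA, the class II transactivator, from 3.35 ± 0.424 to 4.92 ± 0.446 CPM (SD, n = 4 each).

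Markers of other cell types summed to far less than those of SKBR3 epithelium in both groups. They were not all low beside the class I genes: in control, CDH5 at 16.1 CPM was level with HLA-C. The 6 leukocyte markers present summed to 1.14 to 1.896 CPM in control and 1.70 to 2.01 CPM in knockdown, with PTPRC, the pan-leukocyte gene, at 0 to 3 counts per library. Of the 3 tested, 1 was higher, 1 lower and 1 not called. Beside these and the marker calls below, 39.4% of all tested genes were called higher and 37.7% lower. The 7 fibroblast markers summed to 5.999 to 7.55 CPM in control and 11.2 to 12.8 CPM in knockdown, and of the 4 tested, 2 were higher, 1 lower and 1 not called. COL3A1 went from 0 or 1 counts to between 90 and 104 and PDGFRB from 7 to 12 counts to between 43 and 81. COL3A1 passed the filter only through the knockdown libraries, and the control counts of PDGFRB lay near the filter's minimum of 10. COL1A1, the most abundant of them in control, fell from 5.38 ± 0.755 to 4.33 ± 0.221 CPM (SD, n = 4 each), and DCN was at 0 or 1 counts throughout. The 6 endothelial markers summed to 20.9 to 22.2 CPM in control and 19.9 to 22.5 CPM in knockdown. The 2 tested moved apart, CDH5 rising from 16.1 ± 0.295 to 20.1 ± 1.36 CPM and VWF falling from 5.22 ± 0.584 to 0.845 ± 0.218 CPM (SD, n = 4 each). The fibroblast sum was higher in the knockdown libraries, as the class I genes were, and its part in their change was not tested.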

How the data were processed

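Gene-level counts of 8 SKBR3 libraries were analysed. The authors deposited whole-number values labelled as raw counts; the submitters' processing notes name FastQC, Salmon 1.9, DESeq2 and hg38 without their roles, so the values were treated as estimated counts that the authors had rounded. The annotation release, and whether strand was used, are not given in the sources used here.

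In R 4.3.3 with edgeR 4.0.16, filterByExpr (minimum 10 counts, total 15) kept 16430 of 30434 genes. TMM factors were 0.966 to 1.04. Groups were compared by the quasi-likelihood test with robust estimation and Benjamini-Hochberg adjustment over all tested genes, at 0.05. CPM used TMM-scaled totals. Standard errors come from log2 CPM with 0.5 added to each count. Single genes were also tested by exact two-sided permutation over 70 divisions. The biological coefficient of variation was 4.56%. No 2 libraries agreed within sampling noise (chi-square per degree of freedom at least 2.18 within groups). In simulated data, 197 of 200 changed genes among 16430 were recovered, with 11 false calls in 208. Only well-counted genes were changed there, all genes shared the same dispersion, and the changes were larger than those of HLA-E and TAPBP. Most tested genes were called in the real comparison, so its error rates cannot be read from this simulation.

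Positions are from GENCODE 29 (29358 identifiers matched, 96.5%), on GRCh38, the build that hg38 also names. Alternatives used other scalings, filters and tests (DESeq2 1.42.0, limma 3.58.1), a replicate block, regional medians of the 50 nearest genes and leaving out each library. Genes were named as follows: the class I genes, all tested genes of lists of 6 or fewer, the 3 largest called changes of longer lists with a mean of at least 50 counts in one group, the largest called change against most of a list, the neighbours of HLA-B, TAP1, B2M and NLRC5, and the 3 genes nearest to HLA-B in pattern. The class I genes and the lists were chosen with earlier results of these data known. Part of the genes covered by the naming rule is not reported here. Figures used Python 3.11.15 and matplotlib 3.10.9.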

Additional observations from a re-analysis of the deposited data

Results flagged for a closer look

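Levels, ratios, shares and sums of the class I genes, and ratios of proteasome subunit genes, were examined in 42 groups of 4 libraries. Of these groups, 3 held 1 library whose gap to the nearest other, divided by the range of the group, exceeded Dixon's 95% critical value. Chance would give about 2.1. HLA-C was high in knockdown replicate 4, at 82.68 CPM against 78.7 to 79.1 in the other 3. HLA-F was high in control replicate 3, at 0.09497 CPM, which is 2 counts against 1 in each of the others. B2M was low in knockdown replicate 2, at 858.7 CPM against 904 to 913 in the others. None of these libraries crossed into the range of the other group for HLA-C or B2M.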

How the results depend on the processing

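The count of class I genes called higher was 8 as reported and 5 in a test against a 2-fold change. Under the other alternatives it was 6 to 8, including 7 to 8 with 1 library left out. Under every alternative, 0 were called lower. Among all 16430 tested genes, 6475 were called higher as reported, 6246 relative to regional medians and 7157 under library-size scaling. Without a filter, 7874 of 30434 were. For the 2-fold test and an adjusted p under 0.01, the count over all genes was not taken. HLA-B, HLA-C, B2M, TAP1 and TAP2 kept direction and call in 18 alternatives each, and NLRC5 in 17, since it has no value under a minimum mean of 50 counts. HLA-E ranged from an adjusted p of 0.00012 to 0.184, and its log2 fold change from 0.06 to 0.108 with 1 library left out. Replicate numbers did not pair the libraries (correlations of deviations -0.0307 to 0.0563). With the replicate block, 7 class I genes were called, HLA-E being lost (adjusted p = 0.0512).

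Relative to regional medians, direction turned for HLA-E (-0.054), TAPBP (-0.068), CANX (-0.437), PDIA3 (0.004), TAPBPL (-0.281), PSME2 (0.076), PSMB7 (0.13) and THOP1 (0.211). THOP1 also turned under upper-quartile scaling (0.028) and library-size scaling (0.052). With 1 library left out, TAPBPL ranged from -0.005 to 0.064 and TPP2 from -0.029 to 0.048. The cause was not tested. Library-size scaling moved the median of all genes to 0.10. HLA-F, untested in the reported fit, had an adjusted p of 0.617 without a filter and 0.692 in DESeq2; depth limits it and, in control, NLRC5.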
